A study of Mus musculus with 18 samples.

Results

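Mouse embryonic fibroblasts in which dCas9 without an effector had been switched on for 24 h were compared with the same line left uninduced. The comparison used 6 of the 18 libraries of the study, 3 induced and 3 uninduced. All genes with enough counts for a test were followed, which were 16216 of the 47937 gene IDs in the count table. The count filter looked at all 18 libraries, so a gene could pass through another line alone. On the 6 libraries by themselves 14731 genes passed. The induced group was the line with inducible dCas9-control, given 10 ng/ml doxycycline for 24 h, and the uninduced group was that line untreated. The other lines of the study serve here only to show where the response differed. The repressor line carried inducible dCas9-KM and was induced with 100 ng/ml doxycycline for 24 h, the activator line carried inducible dCas9-VPR and was induced with 10 ng/ml for 6 h, and each had 3 induced and 3 uninduced libraries. All groups were grown in the same medium with hygromycin and serum free of tetracycline. Per the series' design text, dCas9 was sent in every line to the major satellite repeat (MSR). The labels do not say whether a line is 1 clone, which mice it came from or whether a group's libraries came from separate cultures. The p-values therefore rest on library-to-library spread, part or all of which may be technical.

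dCas9 is a Cas9 protein that finds its target through a guide RNA but no longer cuts it, and a bound dCas9 can stand in the way of a transcribing polymerase. The major satellite is a tandem repeat that forms the heterochromatin beside the mouse centromeres and is transcribed at a low level in dividing cells. Doxycycline is a tetracycline antibiotic, used here as the inducer, and tetracyclines are known to slow the ribosomes of mitochondria. Induced libraries differed from uninduced libraries in doxycycline, in dCas9 and in any binding of it at the satellite at once, and no library received doxycycline without dCas9. The contributions of these cannot be told apart.

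The targeted repeat is shown first because it is what dCas9 was aimed at. Gm26870, a long noncoding RNA model on chromosome 9 at 3000282 to 3038313 on the minus strand (GRCm38), is made largely of it, and 1 repeat unit from its exon 2 at chr9:3014124-3014357 (minus strand, GENCODE M21) reads as follows. Capitals mark the 222 bases, 94.9% of the unit, that lie in words of 15 bases shared with Gm10800, the satellite-bearing model on chromosome 2 with the most counts in these libraries.
Gm26870: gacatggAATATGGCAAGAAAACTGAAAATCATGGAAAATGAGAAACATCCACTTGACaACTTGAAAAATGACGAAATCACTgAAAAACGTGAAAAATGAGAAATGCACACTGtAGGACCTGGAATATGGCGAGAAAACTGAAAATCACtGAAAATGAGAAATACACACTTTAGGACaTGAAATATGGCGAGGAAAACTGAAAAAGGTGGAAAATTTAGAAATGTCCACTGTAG

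When summed, the satellite-bearing models had fewer counts in every induced library than in any uninduced one. With all 18 libraries in the fit, whether this difference was called depended on the test. The 13 gene models whose transcripts share at least 50% of their length with this repeat in words of 15 bases are near-identical copies, so reads may have been placed on any of them and their sum is the firmer value. The sum held 50, 34 and 62 counts in induced libraries, against 158, 181 and 89 counts in uninduced libraries. Scaled to library size (CPM, counts per 1e6 counts), this was 2.63, 1.48 and 2.56 CPM in induced libraries and 7.34, 7.86 and 5.83 CPM in uninduced libraries. All 3 induced libraries lay below all 3 uninduced libraries. The sum averaged 2.22 ± 0.646 CPM in induced and 7.01 ± 1.05 CPM in uninduced libraries (SD, n = 3 each), a log2 fold change of -1.69 with a 95% interval of -2.59 to -0.80. The adjusted p was 0.114 in the edgeR quasi-likelihood test, in which the genes' spread is estimated over all 6 groups, and an exact two-sided permutation test gave 0.1, the smallest p that 3 against 3 libraries allow. With only the 6 control-line libraries in the edgeR fit the log2 fold change was again -1.69 and the adjusted p 3.7e-10. On all 18 libraries DESeq2 called the sum (-1.68, adjusted p = 8.58e-13) and limma-voom did not (-1.73, adjusted p = 0.2). Gm10800 made up most of the sum, with 24, 17 and 36 counts in induced and 106, 119 and 53 counts in uninduced libraries (log2 fold change -1.99, adjusted p = 0.165). Gm26870 itself had no count in any induced library and 0, 2 and 0 counts in uninduced libraries, too few to compare.

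In the other lines the satellite sum stood elsewhere. It was 0.845, 0.747 and 0.901 CPM in induced repressor libraries, against 6.41, 5.50 and 5.92 CPM in uninduced ones (log2 fold change -2.83). The difference between the repressor and the control line in this change was -1.14 on the log2 scale in the edgeR fit of all 18 libraries. Its 95% interval was -2.87 to 0.60 and its adjusted p 0.637. Without the activator libraries, a fit added after seeing the data, edgeR gave the control-line change an adjusted p of 3.57e-15. The sum's difference between the lines was not read out from that fit, so whether it was called there is not known. Every induced repressor library lay below every induced control-line library, and the uninduced groups overlapped. In the activator line the sum was 4779, 3951 and 3367 CPM in induced libraries, against 31.3, 30.2 and 32.97 CPM in uninduced ones, and that change differed from the control line's by 8.70 (adjusted p = 1.14e-09).

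AC149090.1, annotated as a protein-coding gene at 52190 to 59690 on the minus strand of the unplaced scaffold JH584304.1, shared the second smallest adjusted p with Hist1h1b, Hist2h4 and Bub1b. It had 148, 140 and 145 CPM in induced libraries and 162, 169 and 165 CPM in uninduced libraries, with no overlap (log2 fold change -0.20 ± 0.03, SE, adjusted p = 2.29e-05). Its log2 fold change was -0.49 in the repressor line and 2.48 in the activator line, and both differed from that in the control line (adjusted p = 6.79e-07 and 6.4e-68). AC149090.1 was not among the 13 models that carry the repeat by the search used here, and its place beside any centromere was not tested.

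**Figure D1:**
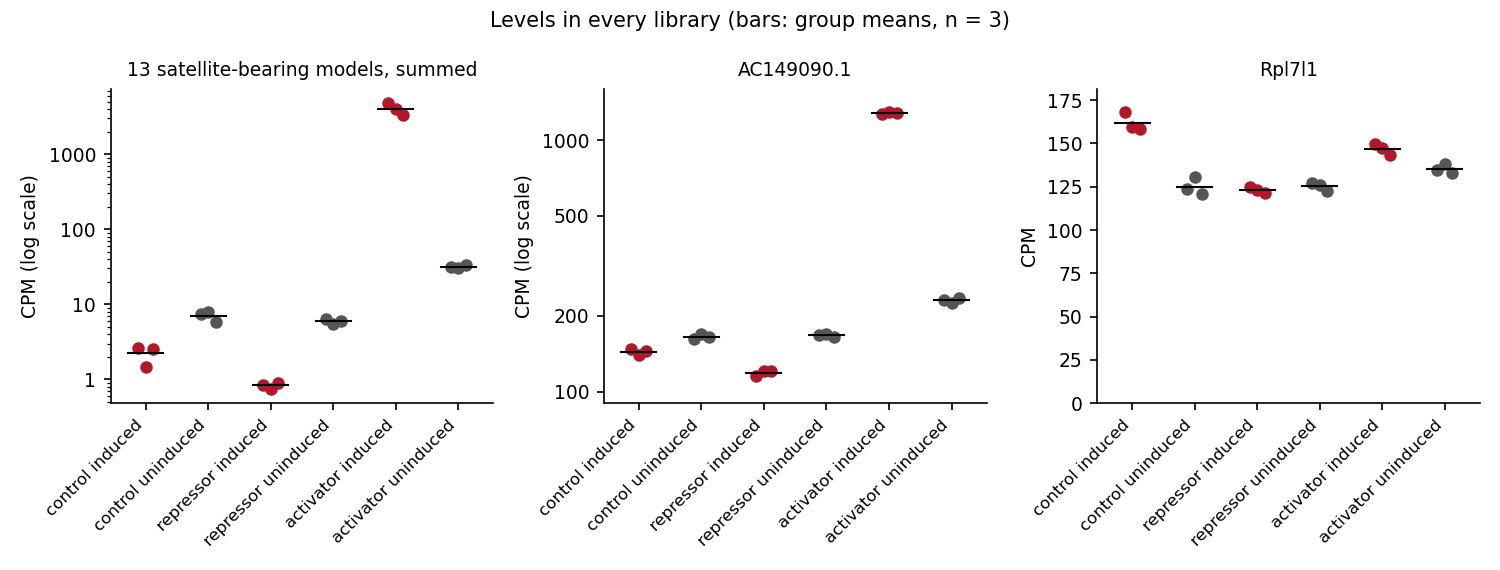
Levels in every library of the summed satellite-bearing models (left, CPM on a log axis), of AC149090.1 (middle, CPM on a log axis) and of Rpl7l1 (right, CPM from 0), with induced libraries in red, uninduced libraries in grey and group means as bars (n = 3). The satellite sum of the induced control line lay between 1.48 and 2.63 CPM, below the uninduced control line and above the induced repressor line, and Rpl7l1 was highest in the 3 induced control-line libraries.

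Across the transcriptome the response was small. A gene is called here when its adjusted p is below 0.05 by edgeR's quasi-likelihood test, with the p-values of all genes adjusted by Benjamini-Hochberg. Of 16216 genes tested, 41 were higher and 34 lower in induced libraries, 75 in all or 0.463% (0.253% higher and 0.21% lower). At an unadjusted p below 0.05 there were 952 higher (5.87%) and 789 lower genes (4.87%), 10.7% of those tested. The median log2 fold change of all genes was 0.00, and that of the middle 95% of the 8961 genes with a mean of at least 10 CPM lay between -0.13 and 0.15. Among the 75 called genes the median rise was 14.0%, the lower genes fell by 10.98% at the median, and 66 changed by less than 20%. Only Serpinb1a and Zmat1 rose and only Cldn18 and Gm24187 fell by at least 1.5-fold. In 73 of the 75 the induced and uninduced libraries did not overlap, as in 15.5% of all genes tested (8.2% higher and 7.3% lower), and the exceptions were Rab32 and Rnd1. The called genes were mostly abundant, with a median of 110.6 CPM against 14.5 CPM over all genes tested, and 71 were protein coding.

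For scale, the repressor line had 845 genes called higher (5.21%) and 745 lower (4.59%) on induction, 9.81% of the genes tested, and the activator line had 75.3% of its genes called. The control-line libraries held 14928765 to 23058761 counts, and the common biological coefficient of variation, a measure of how far replicate libraries differ once counting noise is set aside, was 0.0246. Fibroblast markers fitted the label. Their summed level was 20580 to 21200 CPM in induced and 20676 to 21191 CPM in uninduced libraries, led by Col1a1, Fn1 and Col1a2, while Thy1 had no count and Lum 13 counts in the 6 libraries. Of markers of other cell types, Epcam, Krt5, Ptprc, Cd3e, Myod1, Myog, Sox10, Map2, Rbfox3, Pou5f1 and Zfp42 had no count in the 6 libraries. Other members of these lists were counted. The macrophage gene Cd68 had 4.91 to 5.47 CPM in induced and 3.77 to 4.90 CPM in uninduced libraries, without overlap, and over the 6 libraries Krt14 had 389 counts, Csf1r 345, Des 182, Acta1 173 and Nanog 137, against 398 for the fibroblast marker S100a4. The summed blood and macrophage markers were at 7.80 to 8.001 CPM in induced and 5.76 to 7.997 CPM in uninduced libraries, and the sum of each other list also overlapped. Their part in the results was not tested.

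**Figure D2:**
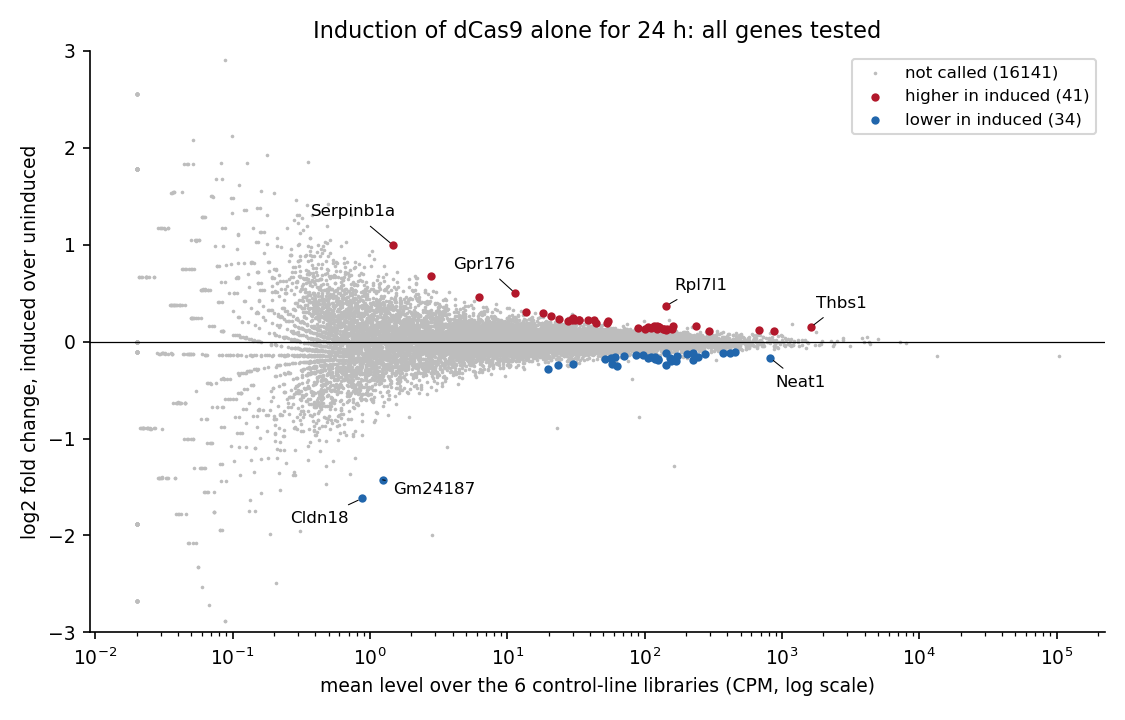
Log2 fold change of each gene, induced over uninduced control line, against its mean level over the 6 libraries (CPM, log axis, genes below 0.02 CPM drawn at 0.02), with the 41 genes called higher in red, the 34 called lower in blue and the others in grey. The called genes sit at the upper and lower edge of a narrow band around 0, and 32 rare genes beyond 3 on the vertical axis are not drawn.

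Calls depended on single libraries. Leaving out each of the 6 libraries in turn left 35 to 58 genes called, of which 31 to 46 were among the 75. Without induced replicate 2 there were 14 higher and 22 lower genes, without induced replicate 3 17 and 20, and without uninduced replicate 1 14 and 21. Without uninduced replicate 2 there were 26 higher genes and without uninduced replicate 3 there were 12. Among the alternatives, scaling by total counts alone gave 65 higher and 21 lower genes, a share of 75.6% higher against 54.7% with TMM scaling. Higher genes were otherwise the majority only with upper-quartile scaling (56.4%), with a filter of at least 1 CPM in 3 libraries (55%) and without uninduced replicate 2 (53.1%). In every other alternative the higher genes were fewer than the lower ones. DESeq2 gave 25 higher and 48 lower genes (34.2% higher). The share was 45.5% with no count filter, 44.9% with the control-line libraries alone and 31.6% without uninduced replicate 3. No called gene changed sign in any of the 18 alternatives. These refit the same counts, and in 73 of the 75 genes the groups did not overlap, so this outcome adds no support. The genes that stayed called in every alternative that gave them an adjusted p numbered 18. They were Rpl7l1, Gpr176, Thbs1, Csrp1 and Arhgap1 among the higher genes, and AC149090.1, Hist1h1b, Hist2h4, H1f0, Bub1b, Cdc20, Hmmr, Prc1, Arhgap19, Neat1, Adgrl2, Peg10 and Rbm14 among the lower genes. The remaining 57 lost their call in at least 1 alternative.

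Rpl7l1, a paralogue of the ribosomal protein gene Rpl7 whose product takes part in making the large ribosomal subunit, showed the smallest adjusted p. The gene lies at chr17:46773907-46782672 on the minus strand (GRCm38). It had 168, 160 and 158 CPM in induced libraries, against 124, 130 and 121 CPM in uninduced libraries. Every induced library was above every uninduced one, and the difference was 1.29-fold (log2 fold change 0.37 ± 0.03, SE, adjusted p = 6.48e-15). The level was 125, 123.17 and 121 CPM in induced repressor libraries and 127, 126 and 122.5 CPM in uninduced ones, with overlap (difference in change -0.39, adjusted p = 2.47e-10). In the activator line it was 149, 147 and 144 CPM in induced and 135, 138 and 133 CPM in uninduced libraries (difference in change -0.25, adjusted p = 8.31e-07). Of 86 tested members of the cytosolic ribosomal protein list, which counts Rpl7l1, it was the single call, and the list's median log2 fold change was 0.01 against 0.00 for all genes. It was also the single call among 37 ribosome biogenesis genes, of which 32 had values below zero (median -0.03).

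The genes that fell included regulators of mitosis. Of 44 tested genes of G2 and mitosis, 7 fell and none rose, where 0.21% of all genes fell. Their median log2 fold change was -0.08 against 0.00 over all genes, and 41 of the 44 were below zero. At an unadjusted p below 0.05, 24 were lower, as were 4.87% of all genes. The summed level of the list was 6256 to 6311 CPM in induced libraries and 6550 to 6713 CPM in uninduced libraries, without overlap. Bulk libraries cannot tell fewer cells in mitosis from less RNA per cell.

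Bub1b encodes the spindle checkpoint kinase-like protein BubR1, and had 158, 162 and 154 CPM in induced and 176, 182 and 184 CPM in uninduced libraries (log2 fold change -0.20 ± 0.03, adjusted p = 2.29e-05). Cdc20, the activator of the anaphase-promoting complex that the checkpoint holds back, had 120, 117 and 112 CPM in induced and 130, 133 and 136 CPM in uninduced libraries (-0.19 ± 0.03, adjusted p = 8.82e-05). Hmmr, which encodes a spindle-associated hyaluronan receptor, had 116, 116 and 121 CPM in induced and 132, 132 and 136 CPM in uninduced libraries (-0.18 ± 0.03, adjusted p = 3.75e-04). In each of the 3 genes the lowest uninduced library stood above the highest induced one. Prc1, a protein that bundles the microtubules of the central spindle, had 165, 162 and 165 CPM in induced and 183, 179 and 183 CPM in uninduced libraries (-0.15 ± 0.03, adjusted p = 0.00299). The mitotic kinases Aurka (-0.17, adjusted p = 0.0052) and Plk1 (-0.16, adjusted p = 0.00527) and the cyclin gene Ccnb1 (-0.12, adjusted p = 0.0487) completed the 7. Ccnb1 was called in 1 of the 6 fits that left out a library, Aurka in 4 and Plk1 in 5, the last failing without induced replicate 2 (adjusted p = 0.0951). Of members below the threshold, Ccnb2 had a log2 fold change of -0.13 (adjusted p = 0.165), the proliferation marker gene Mki67 -0.09 (0.127) and the topoisomerase gene Top2a -0.05 (0.451). Birc5, the survivin gene, stood on the other side of zero at 0.11 (0.172).

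Further fallen genes outside that list also act in mitosis or cytokinesis, and are named after their values were seen. Arhgap19, a GTPase-activating protein of dividing cells, had 54.2, 52.2 and 52.8 CPM in induced and 63.2, 61.8 and 62.1 CPM in uninduced libraries (-0.23 ± 0.04, adjusted p = 3.43e-04). Racgap1, a subunit of the centralspindlin complex that positions the cleavage furrow, had a log2 fold change of -0.13 (adjusted p = 0.00714), and Fzr1, the other activator of the anaphase-promoting complex, -0.14 (adjusted p = 0.0257). Fzr1 was called in 1 of 6 fits without a library and Racgap1 in 4. No member of the centromere and kinetochore list was called, of 42 tested, and its median was 0.00. The smallest adjusted p there was 0.0687, for Hjurp, the chaperone that brings the centromeric histone to chromatin (-0.10).

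The promoters of 4 of the fallen mitotic genes are shown because genes of this phase share known promoter elements. These are the cell cycle genes homology region (CHR), which the DREAM and MuvB complexes bind, and the CCAAT box, which NF-Y binds. The windows run from 250 bases before to 50 bases after the annotated start and were taken from RefSeq (GRCm38.p6). Capitals mark matches to TTTGAA (CHR) or CCAAT on either strand, which do not overlap each other here. Bub1b is at chr2:118597961-118598260 (plus strand), Cdc20 at chr4:118437294-118437593 (minus strand), Hmmr at chr11:40733388-40733687 (minus strand) and Prc1 at chr7:80294201-80294500 (plus strand).
Bub1b: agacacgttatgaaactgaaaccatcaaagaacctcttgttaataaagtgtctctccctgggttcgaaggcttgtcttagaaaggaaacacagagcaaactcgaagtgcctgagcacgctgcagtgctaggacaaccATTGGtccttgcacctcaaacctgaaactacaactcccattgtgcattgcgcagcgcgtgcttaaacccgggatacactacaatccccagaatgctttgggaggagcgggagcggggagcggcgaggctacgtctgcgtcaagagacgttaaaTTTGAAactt
Cdc20: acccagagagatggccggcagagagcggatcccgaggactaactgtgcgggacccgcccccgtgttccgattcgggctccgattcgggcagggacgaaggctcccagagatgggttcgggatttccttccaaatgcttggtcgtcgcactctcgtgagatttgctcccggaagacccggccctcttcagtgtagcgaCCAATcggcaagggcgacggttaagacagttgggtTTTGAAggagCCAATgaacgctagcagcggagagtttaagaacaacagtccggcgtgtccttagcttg
Hmmr: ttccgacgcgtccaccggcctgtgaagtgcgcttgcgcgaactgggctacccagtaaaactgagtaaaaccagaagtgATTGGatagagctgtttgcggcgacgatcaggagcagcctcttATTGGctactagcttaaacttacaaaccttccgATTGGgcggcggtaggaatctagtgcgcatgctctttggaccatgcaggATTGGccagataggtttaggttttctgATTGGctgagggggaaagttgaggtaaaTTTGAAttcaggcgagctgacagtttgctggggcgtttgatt
Prc1: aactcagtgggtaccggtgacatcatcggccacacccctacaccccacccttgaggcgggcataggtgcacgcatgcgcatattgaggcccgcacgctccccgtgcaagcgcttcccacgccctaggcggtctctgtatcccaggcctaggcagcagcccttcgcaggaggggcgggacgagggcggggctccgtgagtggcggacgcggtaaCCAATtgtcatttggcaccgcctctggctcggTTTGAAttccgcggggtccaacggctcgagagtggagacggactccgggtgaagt
Each window holds 1 CHR match, and those of Cdc20 and Hmmr hold 2 and 5 CCAAT matches. Of the 7 G2/M genes that fell, 6 windows held a CHR match (85.7%), Ccnb1's being the exception, and all 7 held a CCAAT match. Of the 32 G2/M genes that were not called and have a window, 24 held a CHR match and 25 (78.1%) a CCAAT match. Over the 10288 tested genes with a window these shares were 14.2% and 43.1%, and over all 32851 windows 17.9% and 37.4%. The matches describe the list and do not set the called members apart from the uncalled ones.

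The mitotic list stood elsewhere in the repressor line. There the same 44 genes had a median log2 fold change of 0.02, with 4 called higher and 1, Bub1b, lower (-0.13). Over all genes in that line 5.21% were higher and 4.59% lower. The difference between the lines was called for 10 of the 44, all with a higher change in the repressor line, where 1.19% of all genes were called in that direction. Among the 7, the difference was called for Cdc20 (0.16, adjusted p = 0.0398), Hmmr (0.16, adjusted p = 0.0257), Plk1 (0.20, adjusted p = 0.0041) and Ccnb1 (0.15, adjusted p = 0.0406), and not for Bub1b (0.07, 95% interval -0.03 to 0.16). Of these 4, only Plk1 kept the call in every alternative. Arhgap19 also differed (0.26, adjusted p = 0.00241). Dose, effector and line changed together between these inductions and cannot be told apart.

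**Figure D3:**
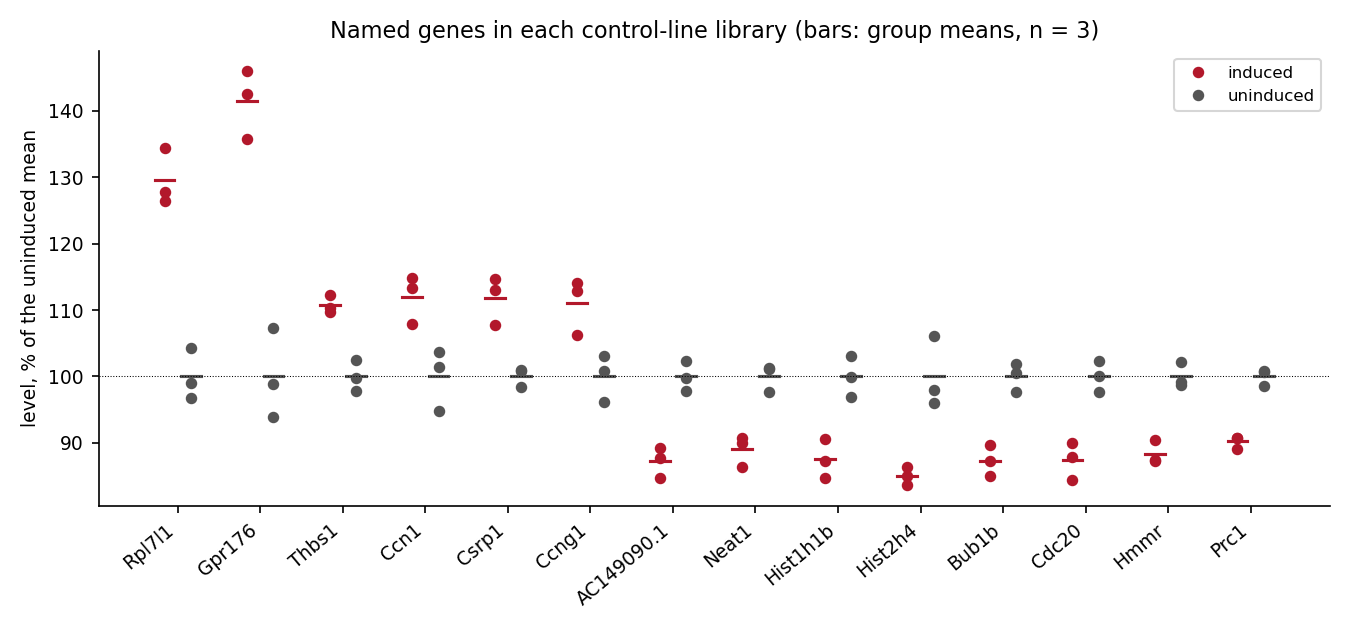
Level of 14 called genes in each of the 3 induced (red) and 3 uninduced (grey) control-line libraries, as a percentage of the gene's uninduced mean, with group means as bars. In each of the 14 genes the induced and uninduced libraries do not overlap, and all but Rpl7l1 and Gpr176 differ by less than 20%.

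Histone genes were lower as well. Replication-dependent histone genes are made in S phase, as RNA without a poly(A) tail, and rRNA-depleted libraries capture them. Of 63 tested, 3 fell and none rose, where 0.21% of all genes fell. Of the 63, 57 were below zero, and the median was -0.13 against 0.00 for all genes. Without induced replicate 3 the median was -0.06, and leaving out any other library gave -0.16 to -0.10. Hist1h1b, a linker histone gene, had 211, 219 and 205 CPM in induced and 250, 242 and 235 CPM in uninduced libraries (-0.19 ± 0.03, adjusted p = 2.29e-05). Hist2h4, a histone H4 gene, had 134, 130 and 132 CPM in induced and 149, 165 and 152 CPM in uninduced libraries (-0.24 ± 0.04, adjusted p = 2.29e-05). Neither gene's groups overlapped. Hist1h3d, a histone H3 gene, fell by 0.17 on the log2 scale (adjusted p = 0.02), and Hist1h2al (-0.22, adjusted p = 0.0568) and Hist1h4i (-0.20, adjusted p = 0.07) stood just short of the threshold. Histone genes of 1 class are near-identical copies whose reads may be split between them. The count moved with the fit, from 2 to 13 over the alternatives, with 7 members lower without induced replicate 1 and 13 without a count filter. In the repressor line 8 members were called lower, as were 4.59% of all genes, with a median of -0.09. No member differed between the lines, where 2.73% of all genes did.

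Linker histones outside that list also fell. H1f0, a linker histone that builds up in cells leaving the cycle, had 58.5, 57.7 and 57.0 CPM in induced and 68.8, 66.1 and 71.6 CPM in uninduced libraries (-0.25 ± 0.04, adjusted p = 8.82e-05). H1fx, another linker histone, fell by 0.28 on the log2 scale (SE 0.07, adjusted p = 0.0257) and was called in 3 of the 6 fits without a library.

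Genes of DNA synthesis were close to level. Of 44 G1/S and replication genes, 1 rose and none fell, where 0.253% of all genes rose, and the median was 0.01. The riser was Ccnd2, the gene of cyclin D2, which had 923, 885 and 914 CPM in induced and 839, 847 and 839 CPM in uninduced libraries (0.11 ± 0.03, adjusted p = 0.0236) and was called in 1 of 6 fits without a library. Below the threshold, the ribonucleotide reductase gene Rrm2 had 0.10 (adjusted p = 0.116) and the helicase subunit gene Mcm6 -0.10 (adjusted p = 0.119). Ccnd2 fell in the repressor line (-0.12) and the difference was called (-0.22, adjusted p = 6.96e-06). Pclaf, a partner of the replication clamp PCNA, was also higher in the control line (0.13, adjusted p = 0.0236), in 2 of 6 fits without a library.

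The 41 higher genes included adhesion and cytoskeletal genes. Of 26 contractile and YAP target genes, 2 rose and none fell, where 0.253% of all genes rose. The median was 0.03, with 18 above and 8 below zero, and 12 were higher at an unadjusted p below 0.05, as were 5.87% of all genes. Thbs1, thrombospondin 1 of the matrix, had 1726, 1695 and 1686 CPM in induced and 1502, 1574 and 1534 CPM in uninduced libraries (0.15 ± 0.03, adjusted p = 6.72e-04). Ccn1, a secreted matricellular protein and a textbook YAP target, had 258, 255 and 243 CPM in induced and 213, 233 and 228 CPM in uninduced libraries (0.16 ± 0.03, adjusted p = 7.46e-04). It lost its call without uninduced replicate 1 (adjusted p = 0.0957). Ccn2, its close relative, stood at 0.23 (adjusted p = 0.105), Ankrd1 at 0.18 (0.0639) and Tagln at 0.13 (0.0543), none of them called. Ankrd1 and Ccn2 had log2 fold changes of 0.98 and 0.85 in the repressor line.

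Outside the list, and named by size or p, the actin- and adhesion-related genes were these. Csrp1, a LIM protein of actin bundles, had 134, 126 and 132 CPM in induced and 118, 118 and 115 CPM in uninduced libraries (0.16 ± 0.03, adjusted p = 0.00299). Arhgap1, a GTPase-activating protein that acts on Cdc42, had 175, 169 and 169 CPM in induced and 150, 159 and 149 CPM in uninduced libraries (0.16 ± 0.03, adjusted p = 0.00122). Lpp, a focal adhesion LIM protein, had 714, 679 and 727 CPM in induced and 658, 650 and 637 CPM in uninduced libraries (0.12 ± 0.03, adjusted p = 0.00527). The groups did not overlap in any of the 3. Chosen after their values were seen, Gsn, an actin-severing protein, Tns1, a focal adhesion adaptor, Fhl2, a LIM coactivator, and Cotl1, an actin-binding protein, rose by 0.13, 0.12, 0.23 and 0.22 on the log2 scale, and of the 6 fits without a library Fhl2 and Cotl1 were called in 2, Gsn in 1 and Tns1 in 0. Triobp, an actin-binding protein gene, went the other way and was called lower, in 1 of the 6 fits without a library. Collagens and their partners had small values, most of them above zero. Of 38 collagen and matrix genes, 31 were above zero and 10 were higher at an unadjusted p below 0.05, as were 5.87% of all genes. By the adjusted p, Fbln5, an elastic fibre protein, was the single call (0.22, adjusted p = 0.048), it was called in none of the 6 fits without a library, and the list's median was 0.04.

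The largest rises were in genes of low level. Serpinb1a, an inhibitor of neutrophil-type serine proteases, had 2.26, 2.04 and 1.65 CPM in induced and 0.930, 1.09 and 0.918 CPM in uninduced libraries, a 1.99-fold difference (log2 0.99 ± 0.23, adjusted p = 0.0187). Zmat1, a zinc finger gene on chromosome X, had 2.95, 3.39 and 3.88 CPM in induced and 2.74, 1.78 and 1.90 CPM in uninduced libraries (0.67 ± 0.17, adjusted p = 0.0392). Gpr176, an orphan G protein-coupled receptor gene, had 13.8, 13.5 and 12.9 CPM in induced and 10.2, 8.90 and 9.37 CPM in uninduced libraries (0.50 ± 0.09, adjusted p = 3.75e-04). Serpinb1a and Zmat1 were each called in 2 of the 6 fits without a library, and Gpr176 in all 6. Next by size were Smim19 (0.46), the lysosomal amidase gene Naaa (0.31), the RNA-binding protein gene Rbm47 (0.29) and Stx17, a syntaxin of autophagosomes (0.26), with adjusted p-values of 0.0309, 0.0392, 0.02 and 0.0402. Of the 6 fits without a library, Smim19 and Rbm47 were called in 2, Stx17 in 1 and Naaa in 0. Prune2 had 124, 120 and 125 CPM in induced and 113, 106 and 112 CPM in uninduced libraries (0.16 ± 0.03, adjusted p = 0.00453).

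The largest falls were likewise in rare transcripts. Cldn18, a tight junction claudin gene, had 0.316, 0.435 and 0.495 CPM in induced and 1.07, 1.30 and 1.64 CPM in uninduced libraries (-1.62 ± 0.33, adjusted p = 0.00433), and missed the threshold without uninduced replicate 3 (adjusted p = 0.0615). Its means were 0.125 and 0.124 CPM in induced and uninduced repressor libraries, and 0.034 and 0.033 CPM in activator ones. The count filter thus admitted it through the uninduced control line, the group where it was high, so its fall is only a description. Gm24187, annotated as a miRNA gene on chromosome 13, had 0.737, 0.565 and 0.784 CPM in induced and 2.00, 2.43 and 0.918 CPM in uninduced libraries (-1.43 ± 0.31, adjusted p = 0.0191). It was called in 1 of the 6 fits without a library. Sapcd2, which takes part in orienting the spindle, fell by 0.24 (adjusted p = 0.0337).

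Of 26 nuclear noncoding RNAs, 2 fell and none rose, where 0.21% of all genes fell. Neat1, the RNA scaffold of paraspeckles, had 749, 787 and 780 CPM in induced and 879, 877 and 847 CPM in uninduced libraries (-0.17 ± 0.03, adjusted p = 5.62e-05). Kcnq1ot1, the antisense RNA of an imprinted cluster on chromosome 7, had 438, 430 and 454 CPM in induced and 477, 475 and 478 CPM in uninduced libraries (-0.11 ± 0.03, adjusted p = 0.0264). It was called in 1 of 6 fits without a library, and how strand entered the counting was not given in the labels. Rbm14, a protein of paraspeckles named after its value was seen, had 105, 107 and 104 CPM in induced and 117, 118 and 119 CPM in uninduced libraries (-0.16 ± 0.03, adjusted p = 0.00376).

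Heterochromatin genes had small values, most of them below zero. Of 46 heterochromatin and silencing genes tested, 1 fell and none rose, where 0.21% of all genes fell. The median was -0.03, and 34 were below zero. At an unadjusted p below 0.05, 5 were lower and none higher, where 4.87% of all genes were lower. The libraries did not overlap in 9, all lower, as in 7.3% of all genes. The gene that fell was Lmnb1, lamin B1 of the nuclear envelope, with 211, 226 and 211 CPM in induced and 232, 232 and 239 CPM in uninduced libraries (-0.12 ± 0.03, adjusted p = 0.0429), in 1 of 6 fits without a library. The de novo DNA methyltransferase gene Dnmt3b had 9.37, 8.09 and 7.88 CPM in induced and 11.8, 10.6 and 9.64 CPM in uninduced libraries, and was not called (-0.36, adjusted p = 0.0506). None of 341 Zfp zinc finger genes was called at a median of 0.00, and 33 of them had an unadjusted p below 0.05, as did 10.7% of all genes. A last list held the 905 tested genes that end at or before coordinate 10 Mb of a chromosome, counted from the end nearest the satellite arrays. Of these, 4 fell and none rose (Neat1, Peg10, Rbm14 and Gm24187), where 0.21% of all genes fell, and the median was 0.00.

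Known targets of doxycycline and of stress were tested as lists because the inducer alone could act on cells. None of 24 mitochondrially encoded genes was called. Their median was 0.09, with 21 above zero, but it was 0.02 without uninduced replicate 2 and 0.15 without uninduced replicate 3. The cytochrome b gene mt-Cytb had 1008, 1018 and 1001 CPM in induced and 977, 920 and 986 CPM in uninduced libraries (0.07, adjusted p = 0.402). No call was made among 78 mitochondrial ribosomal protein genes (median 0.01), 77 nuclear oxidative phosphorylation genes (0.02), 20 genes of mitochondrial protein quality control (0.00) or 22 of mitochondrial gene expression (-0.05). An unadjusted p below 0.05 was reached by 5, 5, 11, 0 and 7 genes of these 5 lists, as by 10.7% of all genes. Of these genes, 3, 2, 9, 0 and 0 were higher, and 2, 3, 2, 0 and 7 lower. Over all genes 5.87% were higher and 4.87% lower at that threshold. The 7 lower genes were in the list of mitochondrial gene expression, where 16 of 22 were below zero.

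Genes of the integrated stress response, which the factor ATF4 drives when translation or mitochondria are disturbed, were not called either. Of 34 tested, 28 were above zero with a median of 0.04. At an unadjusted p below 0.05, 7 were higher, as were 5.87% of all genes. Atf4 itself had 290, 302 and 292 CPM in induced and 287, 294 and 288 CPM in uninduced libraries (0.02, 95% interval -0.04 to 0.08). Chac1 (0.16, adjusted p = 0.184) and Nupr1 (0.34, adjusted p = 0.127) were the furthest from zero of those named. The repressor line differed. There 28 of the 34 fell (median -0.23), as did 4.59% of all genes. The difference between the lines was called for 26, all with a lower change in the repressor line, where 1.54% of all genes were. Asns, asparagine synthetase, had a log2 fold change of 0.03 in the control line and -0.35 in the repressor line (difference -0.38, adjusted p = 7.9e-12), and Trib3, a pseudokinase gene induced by ATF4, 0.07 and -0.54 (difference -0.61, adjusted p = 2.42e-11). The collagen and matrix list split in the same manner, with 18 of 38 lower in the repressor line and 17 differences called lower, against 4.59% and 1.54% of all genes.

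Of 29 p53 target genes, 1 rose and none fell, where 0.253% of all genes rose. The median was 0.05, and 7 were higher at an unadjusted p below 0.05, as were 5.87% of all genes. Ccng1, cyclin G1, had 129, 137 and 138 CPM in induced and 125, 122 and 117 CPM in uninduced libraries (0.15 ± 0.03, adjusted p = 0.00581), and was called in 3 of 6 fits without a library. Eda2r had 11.5, 11.1 and 11.8 CPM in induced and 9.34, 8.85 and 8.78 CPM in uninduced libraries (0.35, adjusted p = 0.0543), and Zmat3 0.13 (adjusted p = 0.0756), both short of the threshold. The best-known targets Mdm2 (0.09, adjusted p = 0.38) and Cdkn1a (0.17, adjusted p = 0.504) were further from it. None of 24 interferon-stimulated genes (median 0.07, 7 at an unadjusted p below 0.05) and none of 22 NF-kB targets (median 0.08, 3 unadjusted) was called. Over all genes 10.7% passed the unadjusted threshold. B2m, the light chain of class I antigen-presenting molecules, rose by 0.13 (adjusted p = 0.0429) and was called in 1 of 6 fits without a library. Of 29 immediate early genes the single call was Ccn1, also counted above, and Egr1 had a log2 fold change of -0.12 (adjusted p = 0.108).

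**Figure D4:**
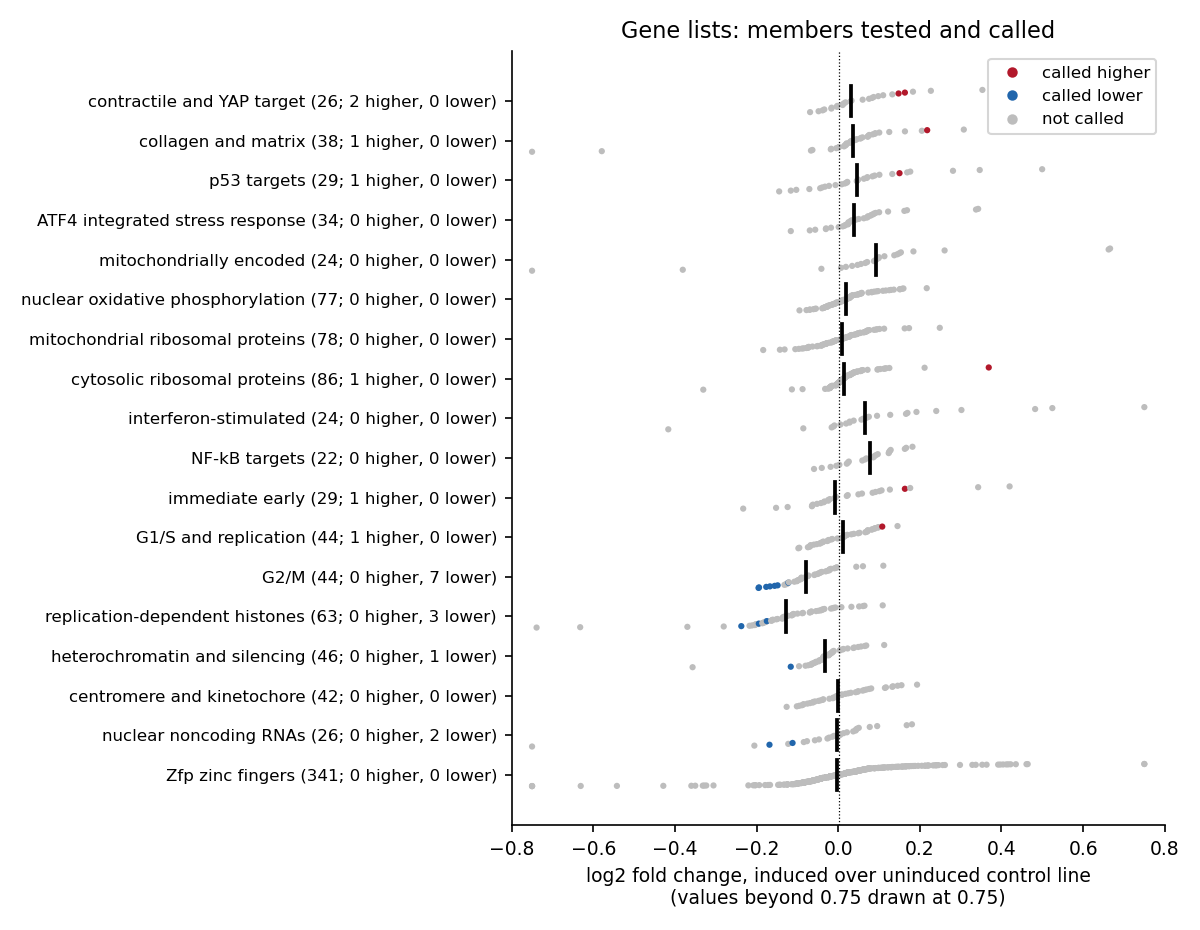
Log2 fold change of each tested member of 18 gene lists, induced over uninduced control line, with called members in red (higher) or blue (lower), others in grey, list medians as black bars, values beyond the axis drawn at its edge and the median of all genes as a dotted line. The G2/M and histone lists lie left of the dotted line at medians of -0.08 and -0.13, and most other lists straddle it.

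The features with a mean of at least 10 CPM that changed by at least 1.5-fold numbered 3, none was called, and all were lower in induced libraries. Gm23935, annotated as a miRNA gene on chromosome 16, had 89.5, 108 and 93.4 CPM in induced and 277, 283 and 137 CPM in uninduced libraries (-1.28, adjusted p = 0.102). The mitochondrial ribosomal RNA gene mt-Rnr2 had 55.7, 76.5 and 70.5 CPM in induced and 145, 110 and 91.4 CPM in uninduced libraries (-0.78, adjusted p = 0.108). Lars2, the mitochondrial leucyl-tRNA synthetase gene, had 15.5, 17.3 and 16.7 CPM in induced and 37.3, 33.1 and 19.3 CPM in uninduced libraries (-0.89, adjusted p = 0.109). The other mitochondrial ribosomal RNA, mt-Rnr1, had 61.6, 82.4 and 66.6 CPM in induced and 105, 82.5 and 87.2 CPM in uninduced libraries (-0.38, adjusted p = 0.216). The libraries were depleted of ribosomal RNA, the 2 mitochondrial ribosomal RNAs together made up 0.0121% to 0.0162% of counts in induced and 0.0183% to 0.0257% in uninduced libraries, and the part of depletion in these values was not tested.

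Of the 75 genes, 36 were also called in the same direction in the repressor line, whose libraries are separate from those of the control line. Both lines had 20 genes higher, which were 48.8% of the 41 higher in the control line and 2.37% of the 845 in the repressor line, where 5.21% of all genes were higher. Both had 16 lower, which were 47.1% of 34 and 2.15% of 745, where 4.59% of all genes were lower in the repressor line. Csrp1, Ccn1, Lpp, Arhgap1 and Hist2h4 were among the shared genes, with log2 fold changes in the repressor line of 0.34, 0.30, 0.21, 0.19 and -0.21. Serpinb1a and Ccnd2 were called in opposite directions. The 75 genes were more abundant than most (median 110.6 CPM against 14.5 CPM), and abundant genes are more readily called in any line. Nothing is therefore read from the overlap against the shares of all genes. The log2 fold changes of the lines had a Pearson correlation of 0.05 over all genes, and 0.26 over those with a mean of at least 10 CPM.

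The change itself differed between the lines for 17 of the 75 genes, where 2.73% of all genes did. Besides Rpl7l1, AC149090.1 and the mitotic genes above, Thbs1 had a log2 fold change of 0.15 in the control line and -0.04 in the repressor line (difference -0.18, adjusted p = 8.63e-04). Serpinb1a had 1.03, 1.19 and 1.38 CPM in induced and 1.76, 2.32 and 1.63 CPM in uninduced repressor libraries (difference -1.66, adjusted p = 2.16e-04). Adgrl2, an adhesion G protein-coupled receptor gene, fell in both lines, by 0.17 in the control and 0.37 in the repressor line (difference -0.20, adjusted p = 0.00149). Peg10, an imprinted gene derived from a retrotransposon, fell by 0.16 in the control and 0.31 in the repressor line (difference -0.15, adjusted p = 0.0154). Csrp1 rose more in the repressor line (difference 0.18, adjusted p = 0.0116). The change differed from that in the activator line for 65 of the 75 genes, where 63.7% of all genes did. Since the 75 genes were chosen for their control-line change, which enters both differences, these counts describe the 75 and nothing is read from them against the shares of all genes.

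**Figure D5:**
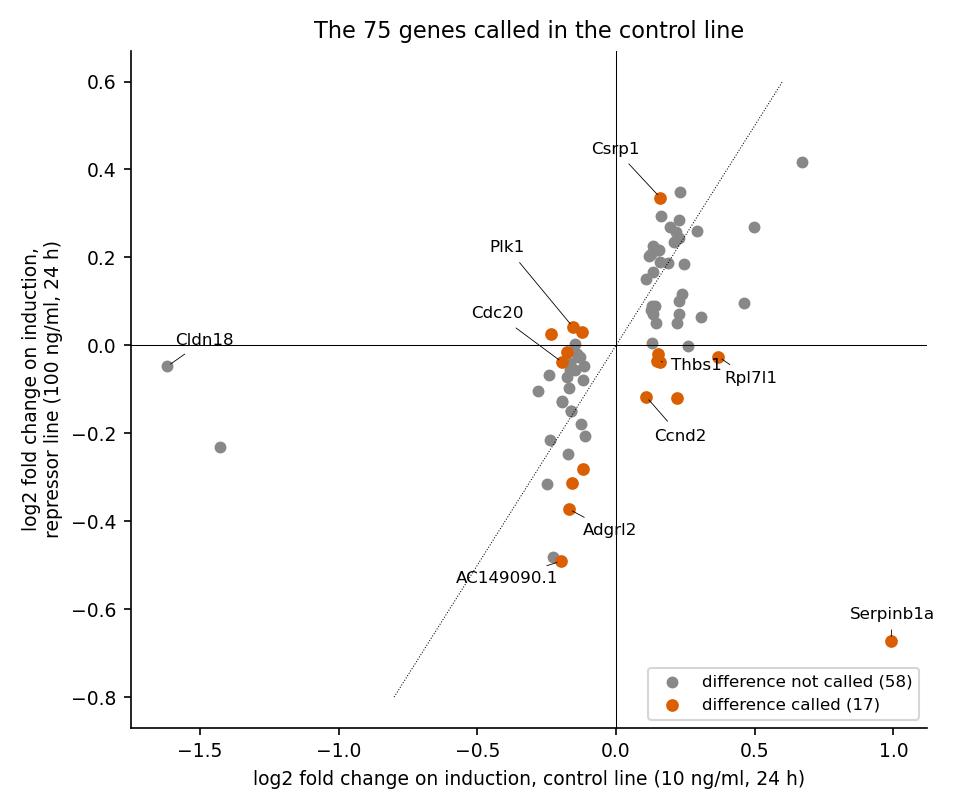
Log2 fold change on induction in the repressor line (vertical) against that in the control line (horizontal) for the 75 genes called in the control line, with the 17 whose difference was called in orange, the other 58 in grey and equality as a dotted line. Rpl7l1 and Thbs1 lie near 0 on the vertical axis, and Serpinb1a lies at 0.99 in the control and -0.67 in the repressor line.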

How the data were processed

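Stranded, rRNA-depleted total RNA libraries were read from both ends, per the labels' protocols. The authors deposited whole-number read counts per gene for 18 libraries, aligned to mm10 per the submitters' processing notes. The aligner, counting tool, annotation release and use of strand were not given in the sources used here, so counts of overlapping, antisense and near-identical genes are uncertain. Symbols, GRCm38 coordinates and transcripts came from GENCODE M21, matched by stable ID for 47310 IDs, and the other 627 held 0.0423% of counts. Promoter windows came from RefSeq (GRCm38.p6).

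The count test was edgeR 4.0.16 (robust quasi-likelihood, TMM, filterByExpr) in R 4.3.3, with 1 coefficient for each of the 6 groups, 12 residual degrees of freedom and Benjamini-Hochberg adjustment over all features at 0.05. SE is the log2 fold change divided by the square root of F. The satellite sum entered as 1 extra feature. Alternatives used DESeq2 1.42.0 and limma 3.58.1 (voom).

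Genes named were, in each direction, the 8 called with the largest change among those of at least 1 CPM without overlap, the 8 with the smallest adjusted p, up to 4 leading members per list, the 6 leading differences per line, the satellite models and Rpl7l1. The comparison, members and lists were chosen with earlier results of these data known. The dCas9 transgene was not analysed here. Library totals ran from 14928765 to 25262912 counts, and pairs of replicates differed by more than counting noise.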

Additional observations from a re-analysis of the deposited data

Results flagged for a closer look

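The changes on induction listed here differed between lines by a test of the difference itself, the interaction term of the edgeR quasi-likelihood fit with Benjamini-Hochberg adjustment over all features. As repressor-line minus control-line change on the log2 scale, the difference was -0.39 for Rpl7l1, -0.29 for AC149090.1, -0.20 for Adgrl2, -0.15 for Peg10, -0.18 for Thbs1, -0.20 for Prune2, -0.17 for Ccng1, -1.66 for Serpinb1a, -0.16 for Tnrc18, -0.22 for Ccnd2 and -0.34 for Fbln5. It was 0.16 for Cdc20, 0.26 for Arhgap19, 0.16 for Hmmr, 0.18 for Csrp1, 0.20 for Plk1 and 0.15 for Ccnb1. Of these 17 genes, 9 kept the call in every alternative tried, namely Rpl7l1, AC149090.1, Adgrl2, Arhgap19, Ccnd2, Plk1, Serpinb1a, Thbs1 and Tnrc18. Of genes not called in the control line, Asns (-0.38) and Trib3 (-0.61) differed.

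As activator-line minus control-line change, the difference was 2.67 for AC149090.1, -1.24 for Thbs1, -1.35 for Lbh, -2.06 for Il4ra, -0.98 for Tnrc18 and -1.38 for Gramd4, and 8.70 for the summed satellite-bearing models. The lines also differed in dose or time of induction, which cannot be told apart from the effector.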

How the results depend on the processing

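Counts of calls moved with the fit. Against 41 higher and 34 lower genes, total-count scaling gave 65 and 21, DESeq2 gave 25 and 48, and leaving out 1 library gave 12 to 28 higher and 20 to 30 lower. Alternatives chosen after seeing the data gave 93 and 99 without the 6 activator libraries, and 17 and 34 with DESeq2 on the 6 control-line libraries. Genes changed by at least 1.5-fold, 2 in each direction, were 0 higher with DESeq2 (both fits), 1 with voom, 1 with the replicate block (all or control-line libraries), 5 without the activator libraries and 0 to 2 without 1 library. Lower ones were 4 with DESeq2, with voom and without a count filter, 5 with control-line libraries alone, 1 with the replicate block, 6 without the activator libraries, 1 with DESeq2 on the control line alone and 1 to 3 without 1 library. DESeq2 gave 117 higher differences between repressor and control line against 193, and total counts 2679 higher between activator and control line against 4987. The satellite sum was called with DESeq2 (-1.68, adjusted p = 8.58e-13), with control-line libraries alone (-1.69), there with the replicate block, added after seeing the data (-1.68), and without the activator libraries (-1.69), and ran from -1.83 to -1.46 without 1 library. Without 1 library, list medians ran from -0.16 to -0.06 (histones), -0.09 to -0.07 (G2/M), 0.02 to 0.15 (mitochondrially encoded), 0.05 to 0.15 (interferon-stimulated), 0.01 to 0.07 (p53 targets) and 0.03 to 0.06 (collagen and matrix). The causes were not tested. With the replicate block 31 higher and 32 lower genes were called, 56 of the 75 among them. Same-numbered libraries had correlations of deviations of -0.08, -0.05 and -0.08. Differently numbered ones ran from -0.09 to 0.16. The highest were induced 3 with uninduced 1 (0.16), induced 2 with uninduced 3 (0.12) and induced 1 with uninduced 2 (0.12). A pairing under other numbers was not tested. The other 133 recomputed counts and sums stayed within 1.5 times or on their side of the threshold. At this depth the smallest called changes were 0.11 higher and -0.11 lower on the log2 scale.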

Other observations

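Some called genes lie close together. On chromosome 11, Hmmr fell and Ccng1 rose, and the gap between the 2 gene models is 15129 bases, with 1 tested gene, Nudcd2, starting between them. On chromosome 15, Triobp, an actin-binding protein gene, and H1f0 both fell and lie 22580 bases apart with no tested gene between them. On chromosome 2, Thbs1 and Gpr176 both rose and lie 149976 bases apart with no tested gene between them. Bub1b, which fell, lies 224791 bases beyond Gpr176, with 4 tested genes starting between those 2. Only called genes next to each other in order along a chromosome were compared. The 1 further such pair less than 500 kb apart was Hist2h4 and Txnip on chromosome 3 (294645 bases, lower and higher, 9 tested genes starting between them). Whether called genes lie closer than other genes was not tested.

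Among called genes not described above and named after their values were seen, Eno3, the muscle-type enolase gene, rose by 0.23 (adjusted p = 0.00581), Ass1, argininosuccinate synthase, by 0.24 (adjusted p = 0.00836), Papss2, which makes the sulfate donor for matrix sulfation, by 0.23 (adjusted p = 0.0246), and Txnip, the thioredoxin inhibitor, by 0.22 (adjusted p = 0.0243), all on the log2 scale in edgeR's quasi-likelihood test. Eno3 and Ass1 were each called in 4 of the 6 fits without a library, Txnip in 2 and Papss2 in 1. The metabolic lists held no call, with 0 of 32 glycolysis and hypoxia genes, 0 of 26 cholesterol genes and 0 of 14 fatty acid synthesis genes. Their medians were 0.00, -0.01 and 0.00 on the log2 scale. An unadjusted p below 0.05 was reached by 5, 3 and 0 genes, as by 10.7% of all genes.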
